A study of Mus musculus with 9 samples.

Results

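The heat shock and unfolded protein response genes are 36 mouse genes chosen by symbol, of which 15 encode cytosolic and mitochondrial chaperones or their regulators and 21 encode chaperones, folding enzymes and stress sensors of the endoplasmic reticulum (ER). All 36 were matched through the GENCODE M21 annotation to the 47937 Ensembl identifiers of the deposited count table. The cells were splenic CD4+ T cells of C57BL/6 mice, isolated magnetically with a CD4 T cell kit and then with beads against CD62L, a homing receptor of naive T cells. TEPP-46 cells (3 libraries) were kept for 15 min with TEPP-46, a small molecule that activates the glycolytic enzyme pyruvate kinase M2, and were then activated with antibodies against CD3 and CD28 bound to the plate. The TEPP-46 concentration is given only as a range of 50 to 100 µM, and not per library. Control cells (3 libraries) were activated in the same way after 15 min with the solvent DMSO, and resting cells (3 libraries) are labelled without activation. The replicates are numbered 1, 4 and 5 in each group, and values below are listed in that order. The sources used here do not give how long the cells were activated, how old the mice were or whether resting cells spent time in culture. Nothing in the labels says that replicates are separate animals, and p-values therefore reflect only the spread among these libraries, which can be technical.

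Chaperones bind unfolded proteins and help them reach their native shape, and cells raise their transcription when unfolded proteins build up. In the cytosol the transcription factor HSF1 binds heat shock elements of genes for HSP70, HSP90 and HSP40 proteins. In the ER the sensors IRE1 (Ern1), ATF6 and PERK are held by the chaperone BiP (Hspa5), and when active they act through spliced Xbp1, cleaved ATF6 and ATF4 on genes for chaperones, disulfide isomerases and ER-associated degradation, the unfolded protein response that lymphocytes use when they become secretory cells.

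Several ER members carry the ER stress element in their promoters, the site through which ATF6 and XBP1 act with NF-Y. RefSeq promoters (GRCm38.p6, 250 bases before to 50 bases after the start site) were found for 28 of the 36 members, 18 of the ER and 10 of the cytosol and mitochondria. The element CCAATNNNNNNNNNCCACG, searched on both strands, occurred in 7 of the 18 ER members, in 0 of the 10 others and in 0.137% of 27025 mouse genes with a promoter. The list itself was made of known unfolded protein response genes, so this share is not independent of how the members were chosen. The matches are shown with the fixed letters in capitals, because the element is the sequence by which this response reaches its genes:
Calr, chr8:84847075-84847093, on the opposite strand: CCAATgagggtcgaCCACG
Canx, chr11:50325800-50325818, on its own strand: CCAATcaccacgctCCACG
Creld2, chr15:88819520-88819538, on the opposite strand: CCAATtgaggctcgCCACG
Dnajc3, chr14:118937827-118937845, on its own strand: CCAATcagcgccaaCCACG
Hsp90b1 (distal), chr10:86705638-86705656, on its own strand: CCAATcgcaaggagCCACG
Hsp90b1 (proximal), chr10:86705533-86705551, on the opposite strand: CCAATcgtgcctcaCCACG
Hspa5, chr2:34772025-34772043, on its own strand: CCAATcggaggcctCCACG
Pdia6, chr12:17266491-17266509, on its own strand: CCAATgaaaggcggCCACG

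The heat shock element was searched as GAANNTTCNNGAA and its reverse complement. It occurred in 3 of the 10 cytosolic and mitochondrial members (Hspd1, Hspe1 and Hsph1), in 0 of the 18 ER members and in 0.662% of the 27025 genes. Hspd1 and Hspe1 are transcribed in opposite directions with overlapping exons, and the same overlapping pair of matches lies in a RefSeq promoter window of each. The element nearer to Hspe1 and that of Hsph1 are shown, with the fixed letters in capitals, as the matches of a mitochondrial and of a cytosolic member:
Hspe1, chr1:55088064-55088076 (plus strand): GAAccTTCcgGAA
Hsph1, chr5:149636288-149636300 (minus strand): TTCtgGAAagTTC

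The core TGACGTGG of the unfolded protein response element was searched on both strands, was found in 0 of the 28 members and occurs in 0.714% of the genes. Its reverse complement begins with the last letters of the ER stress element, so the matches of both motifs could overlap. These are matches of letters and not measured sites of binding. Of the members with the ER stress element, Calr and Dnajc3 had positive log2 fold changes in TEPP-46 against control cells (0.47 and 0.46, neither past the threshold used below). Canx, Creld2, Hsp90b1, Hspa5 and Pdia6 had negative ones. A link between the element and the direction of change was not tested. The 250 bases before the start site follow for Canx and Pdia6, which fell in TEPP-46 cells relative to control cells, for Hspa5, which fell in TEPP-46 cells relative to resting cells, and for Dnajb9, the member with the largest fold change between control and resting cells. Capitals mark the ER stress element, of which the Dnajb9 stretch holds no exact match:
Canx, chr11:50325674-50325923 (minus strand): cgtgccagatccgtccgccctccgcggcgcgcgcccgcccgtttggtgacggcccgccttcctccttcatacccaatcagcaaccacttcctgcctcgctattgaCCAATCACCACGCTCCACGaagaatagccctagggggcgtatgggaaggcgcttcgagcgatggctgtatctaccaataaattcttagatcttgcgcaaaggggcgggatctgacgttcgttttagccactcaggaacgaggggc
Pdia6, chr12:17266339-17266588 (plus strand): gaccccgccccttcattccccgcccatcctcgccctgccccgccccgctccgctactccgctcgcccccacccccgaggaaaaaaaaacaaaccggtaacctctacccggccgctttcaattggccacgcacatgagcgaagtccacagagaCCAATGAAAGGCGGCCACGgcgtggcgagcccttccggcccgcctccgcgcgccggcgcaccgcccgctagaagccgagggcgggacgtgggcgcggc
Hspa5, chr2:34771840-34772089 (plus strand): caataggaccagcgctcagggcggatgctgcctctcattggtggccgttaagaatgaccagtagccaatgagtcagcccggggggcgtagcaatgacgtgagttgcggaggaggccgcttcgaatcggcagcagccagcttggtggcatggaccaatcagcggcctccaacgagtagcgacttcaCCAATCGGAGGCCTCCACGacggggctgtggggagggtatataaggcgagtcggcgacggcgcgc
Dnajb9, chr12:44210069-44210318 (minus strand): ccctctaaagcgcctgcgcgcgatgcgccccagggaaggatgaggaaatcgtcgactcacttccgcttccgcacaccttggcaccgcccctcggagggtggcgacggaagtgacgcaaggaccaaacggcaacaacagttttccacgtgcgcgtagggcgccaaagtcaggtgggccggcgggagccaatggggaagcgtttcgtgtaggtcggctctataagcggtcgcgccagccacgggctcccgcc

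The libraries held between 2397304 (TEPP-46 replicate 4) and 5030643 counts (resting replicate 1), so that 3 counts equal 0.596 to 1.25 CPM, the unit of level used below (read counts per 1000000, on TMM-scaled totals). All 7 CD4 T cell markers were detected in every library, and their summed level was 6341 to 7482 CPM in TEPP-46, 3431 to 4652 CPM in control and 4310 to 7423 CPM in resting libraries. The TEPP-46 libraries were the most uneven. Malat1, a nuclear RNA, stood at 2532, 12290 and 12820 CPM in TEPP-46 replicates 1, 4 and 5, at 2067 to 4120 CPM in control and at 4373 to 8385 CPM in resting libraries. Genes with an Rpl or Rps symbol summed to 39620, 9645 and 19810 CPM in TEPP-46 libraries, to 24980 to 32380 CPM in control and to 17820 to 24830 CPM in resting libraries. The 4 platelet markers reached 16.5, 271 and 84.1 CPM in TEPP-46 libraries, against at most 4.91 CPM in the other 6 libraries, and the 9 B cell markers summed to 728 to 1216 CPM in TEPP-46, 228 to 255 CPM in control and 1701 to 1888 CPM in resting libraries. The 13 plasma cell markers summed to 17.9, 176 and 46.6 CPM in TEPP-46 libraries, 23.6, 20.2 and 20.4 CPM in control libraries and 3190, 1638 and 5792 CPM in resting libraries. The defining plasma cell gene Igha was at 0 in TEPP-46 replicates 1 and 4 and in control replicates 4 and 5. Tnfrsf17 was at 0 in all 6 activated libraries, but only at 0.201, 0.528 and 0.649 CPM in resting libraries. Not every marker followed the sum. Fkbp11 was higher in control (6.87, 4.08 and 4.54 CPM) than in resting libraries (0.201, 0.792 and 0.649 CPM), and Sdc1 and Prdm1 overlapped between these groups. Levels are shares of a library, so fewer cells of a type and less RNA per cell cannot be told apart.

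**Figure D1:**
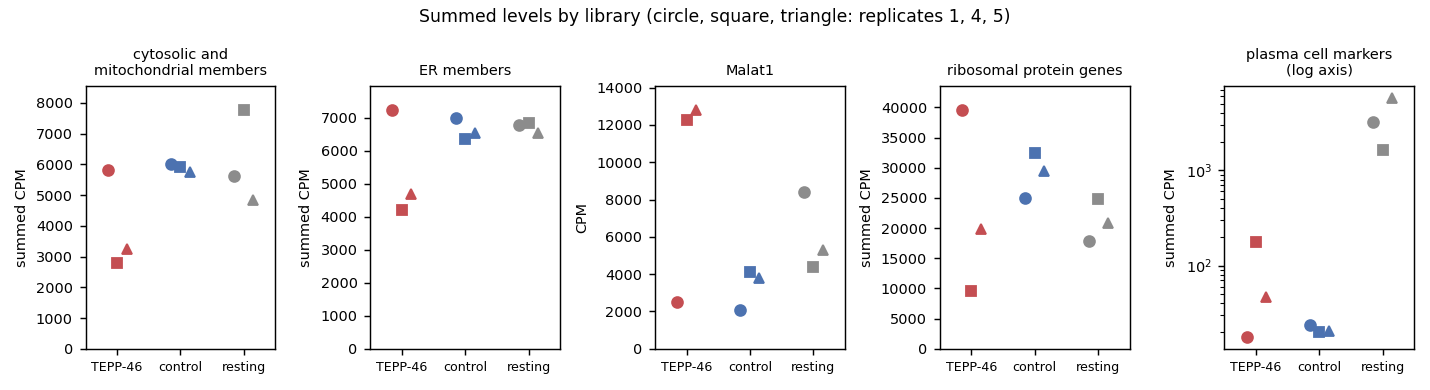
Summed CPM of the cytosolic and mitochondrial members and of the ER members beside Malat1, ribosomal protein genes and plasma cell markers (log axis) in each library of the TEPP-46, control and resting groups, with circle, square and triangle for replicates 1, 4 and 5. TEPP-46 replicate 1 lies near the control libraries in both member sums, while replicates 4 and 5 lie below all other libraries.

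The summed RNA of the chaperones differed between the TEPP-46 libraries. The cytosolic and mitochondrial members summed to 5825, 2796 and 3255 CPM in TEPP-46 cells, 6008, 5924 and 5764 CPM in control cells and 5604, 7778 and 4838 CPM in resting cells. The ER members summed to 7243, 4192 and 4698 CPM in TEPP-46 cells, 6996, 6355 and 6525 CPM in control cells and 6773, 6836 and 6539 CPM in resting cells. TEPP-46 replicate 1 lay within or near the other groups, and replicates 4 and 5 lay below every control and resting library in both sums. Hspa8 alone held 2753 CPM of replicate 1. Without Hspa8 the cytosolic and mitochondrial members summed to 3072, 1847 and 1868 CPM in TEPP-46 cells, 4561, 4166 and 4168 CPM in control cells and 3814, 4908 and 3086 CPM in resting cells, with all TEPP-46 libraries below all others. Replicates 4 and 5 are also the TEPP-46 libraries with the high Malat1 levels, and the part of that difference in the result was not tested. Replicate 1 had the highest level of the TEPP-46 libraries in 25 of the 35 tested members, and replicates 4 and 5 had the lowest in 17 and 14. Over the tested members the median SD of log2 CPM was 0.49 in TEPP-46, 0.181 in control and 0.275 in resting libraries, beside 0.519, 0.20 and 0.31 over all genes tested.

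Housekeeping chaperones had the highest levels per length in each group. On the scale of CPM per kilobase of exon, the highest levels in TEPP-46 cells were those of Hspa8 (the constitutive cytosolic HSP70) at 394, Pdia3 (a disulfide isomerase that works with calnexin and calreticulin) at 371 and Hsp90ab1 (the constitutive cytosolic HSP90) at 340. In control cells the order was Hsp90ab1 at 642, Hspa8 at 372 and Hspa5 at 280 CPM per kilobase. In resting cells it was Hspa8 at 497, Hsp90ab1 at 485 and Hspa5 at 435 CPM per kilobase. The stress-inducible Hspa1a, Hspa1b and Hspb1 were at the low end in each group. They stood at 0.316, 0.0770 and 0.298 CPM per kilobase in TEPP-46 cells. In control cells they had 10.6, 0.906 and 2.28, and in resting cells 7.12, 0.65 and 0.355 CPM per kilobase.

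**Figure D2:**
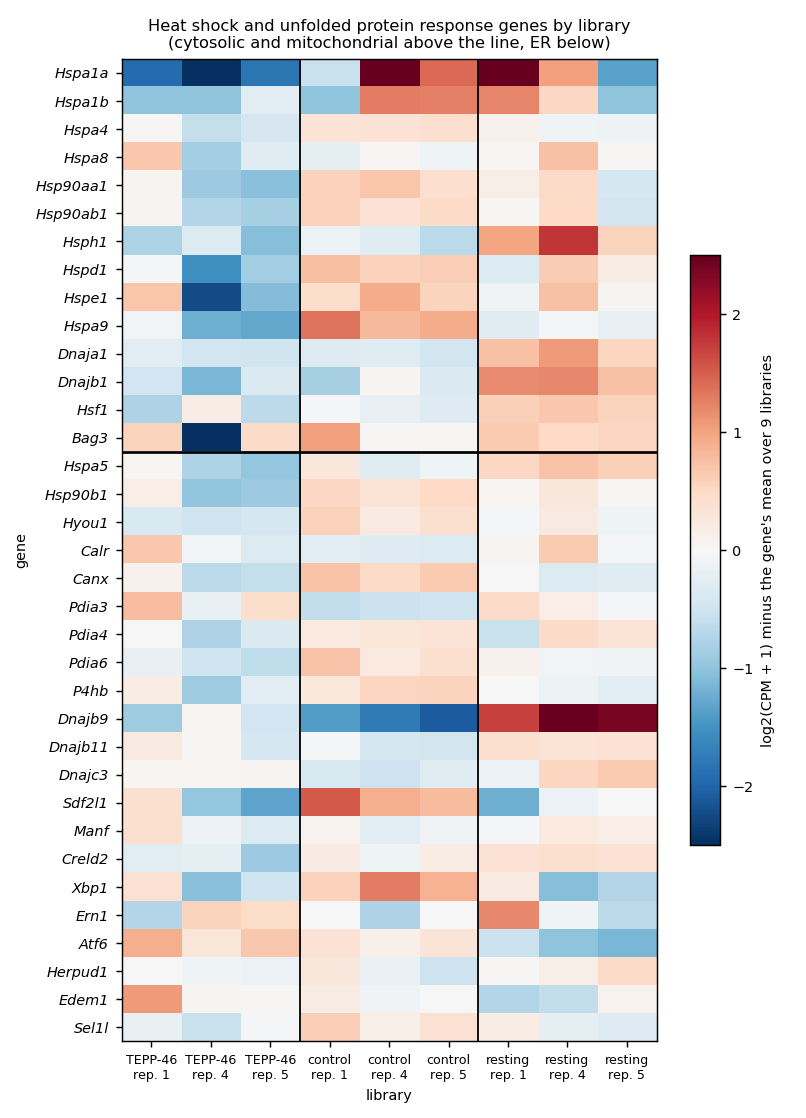
Log2(CPM + 1) of 35 members in the 9 libraries, each as the difference from the member's mean over all libraries, in columns for TEPP-46, control and resting replicates 1, 4 and 5, with colours ending at differences of 2.5 in either direction. Hspb1, which had too few counts to be tested, is left out, and among the TEPP-46 columns replicate 1 is the highest in 25 of the 35 rows.

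TEPP-46 cells had less RNA of several folding factors than control cells, led by the mitochondrial chaperones Hspa9 and Hspd1, the cytosolic Hsp90aa1 and the ER genes Canx, Hyou1 and Pdia6, and more of Dnajb9 and Pdia3. This comparison asks what treatment with TEPP-46 changes in activated T cells. A member is said to have risen or fallen, or to be called, where the quasi-likelihood test of edgeR gave a Benjamini-Hochberg adjusted p below 0.05 over 12536 genes, among which were 35 members. Of the 36 members, 7 fell (19.4% of those listed, beside 6.43% of all genes tested) and 2 rose (5.56%, beside 9.72% of all genes). The median log2 fold change over the 35 tested members was -0.556, against 0.041 over all genes tested. All 3 TEPP-46 libraries were below all 3 control libraries in 16 tested members (44.4% of those listed, beside 20% of all genes) and above them in 3 (8.33%, beside 19.6%). With total counts as the only scaling the median of all genes moved by -0.131, 14 members fell and 1 rose, and 43.8% of all calls were rises, against 60.2% with TMM factors.

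Among the 14 tested cytosolic and mitochondrial members 4 fell (26.7% of those listed, beside 6.43% of all genes). Their median log2 fold change was -0.796, against 0.041 over all genes, and 13 of the 14 fold changes were negative. Leaving out 1 library at a time gave 7 called members without TEPP-46 replicate 1, 2 without control replicate 1, and 1 without control replicate 4 or 5 or TEPP-46 replicate 4 or 5. Among the 21 ER members 3 fell (14.3%, beside 6.43% of all genes) and 2 rose (9.52%, beside 9.72%), with a median of -0.469. Here 11 were called without TEPP-46 replicate 1, 1 without control replicate 1, and 0 without control replicate 4 or 5 or TEPP-46 replicate 5. Without both TEPP-46 replicates 4 and 5, which stood apart, only Pdia3 of the 9 members was still called, the lone TEPP-46 library then being assumed to vary like the other groups.

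**Figure D3:**
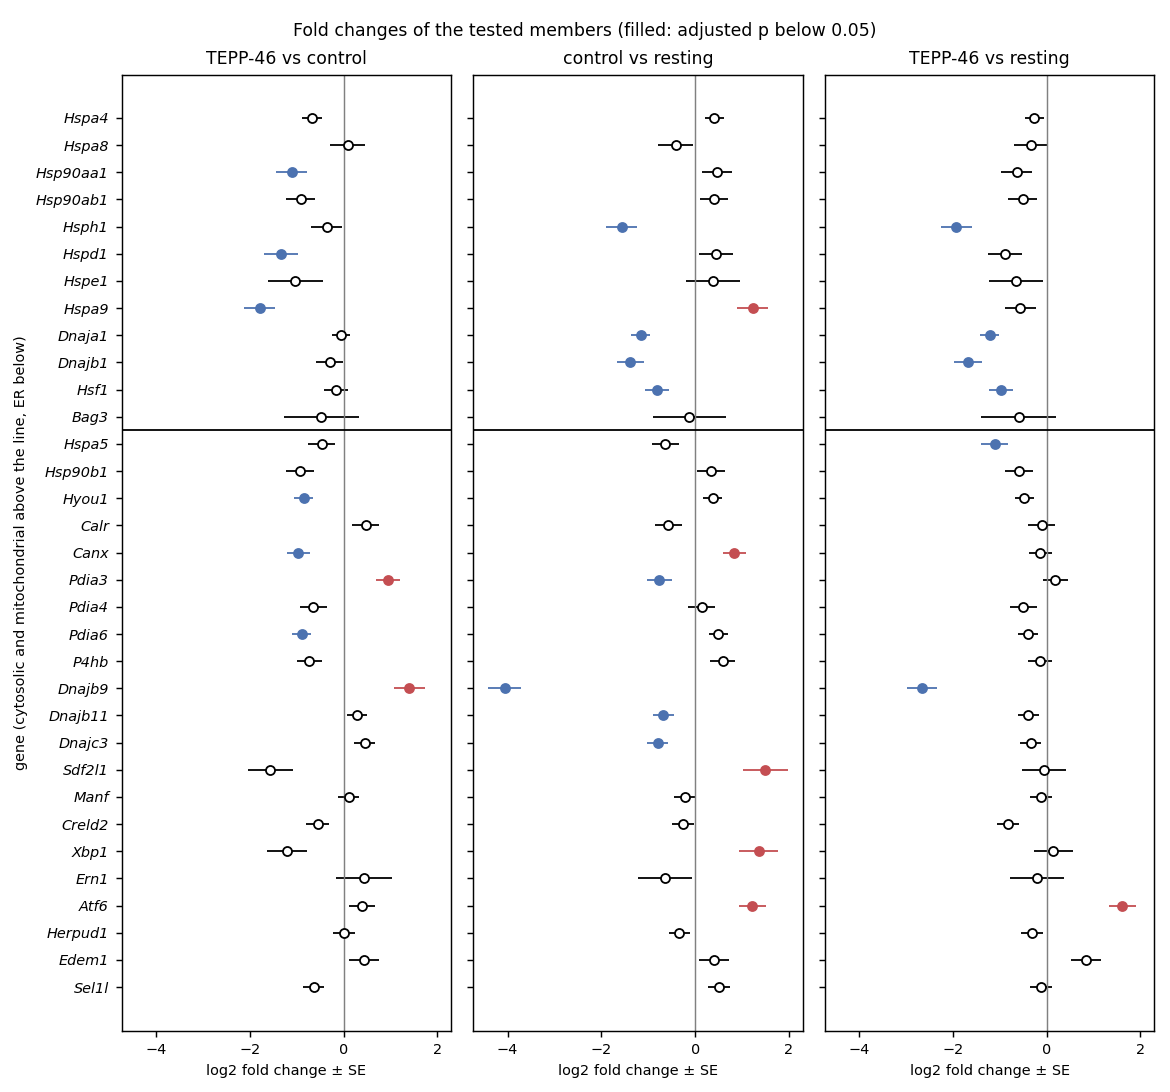
Log2 fold change ± SE of each member in TEPP-46 against control, control against resting and TEPP-46 against resting cells, from the fit of all 9 libraries, with members past the threshold filled (red for a rise, blue for a fall). Hspa1a and Hspa1b, whose errors are wide, and Hspb1, which was not tested, are left out, and in TEPP-46 against control most points lie left of 0 while Pdia3 and Dnajb9 lie right of it.

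Of the members, the mitochondrial chaperone Hspa9 had the smallest adjusted p. Hspa9, the mitochondrial HSP70 that pulls proteins through the inner membrane, stood at 290, 130 and 124 CPM in TEPP-46 cells, against 773, 533 and 578 CPM in control cells. Even the highest TEPP-46 library was below the lowest control library. Hspa9 fell by 1.79 ± 0.33 on the log2 scale (SE), a level 3.45 times lower (adjusted p = 0.00871). The call held when any 1 library was left out, with log2 fold changes between -2.31 and -1.57, and was lost without both TEPP-46 replicates 4 and 5 (adjusted p = 0.0679). Hspd1, the HSP60 chaperonin of the matrix, stood at 254, 88.7 and 142 CPM in TEPP-46 cells, against 438, 389 and 397 CPM in control cells. The groups did not overlap, and Hspd1 fell by 1.33 ± 0.37 (adjusted p = 0.0348). That call was lost without resting replicate 5, without TEPP-46 replicate 4 or 5 and without any 1 of the control libraries (adjusted p up to 0.123). Hspe1, the HSP10 lid of the same chaperonin, had 77.6, 9.24 and 21.7 CPM in TEPP-46 cells and 64.3, 90.3 and 70.3 CPM in control cells. Its groups overlapped through TEPP-46 replicate 1 (log2 fold change -1.03 ± 0.58, adjusted p = 0.238). The exons of Hspd1 and Hspe1 overlap on opposite strands and the strand setting of the counting is not given, so their reads cannot be fully told apart.

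Among cytosolic chaperones the HSP90 genes and Hspa4 were lower in every TEPP-46 library. Hsp90aa1, the inducible HSP90, stood at 204, 103 and 93.5 CPM in TEPP-46 cells, against 290, 313 and 260 CPM in control cells, and fell by 1.11 ± 0.33 (adjusted p = 0.0448). The call was lost without any 1 control library, without TEPP-46 replicate 4 or 5 and without resting replicate 1 or 4 (adjusted p up to 0.154, log2 fold changes from -1.56 to -0.90). Its constitutive partner Hsp90ab1 stood at 1439, 835 and 781 CPM in TEPP-46 cells, against 2070, 1768 and 1935 CPM in control cells. These groups did not overlap either, but the test did not pass (log2 fold change -0.92 ± 0.31, adjusted p = 0.0663). Hspa4, an HSP110-type exchange factor for HSP70, had 288, 186 and 209 CPM in TEPP-46 cells and 356, 359 and 376 CPM in control cells (-0.68 ± 0.21, adjusted p = 0.0501), at the edge of the threshold.

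Hspa8, the most abundant cytosolic HSP70, showed how far the TEPP-46 libraries differed from each other. It stood at 2753, 948 and 1387 CPM in TEPP-46 cells, so that replicate 1 was above and the others below the 1447, 1757 and 1596 CPM of control cells (log2 fold change 0.08 ± 0.37, adjusted p = 0.891). The sign of this change depended on scaling and on the library left out. The HSP40 co-chaperones Dnaja1 and Dnajb1 had log2 fold changes of -0.05 ± 0.20 and -0.30 ± 0.29 (adjusted p = 0.872 and 0.485). The exchange factor Hsph1 and the regulator Hsf1 had -0.36 ± 0.33 and -0.17 ± 0.26 (adjusted p = 0.465 and 0.676). All 4 of these overlapped between TEPP-46 and control cells. Bag3, which links HSP70 to selective autophagy, had 19.8, 0 and 18.8 CPM in TEPP-46 cells, and 27.7, 13.4 and 13.6 CPM in control cells (-0.48 ± 0.80, adjusted p = 0.702). TEPP-46 replicates 1 and 5 lay within the control range, and replicate 4 had no Bag3 counts.

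The strictly inducible heat shock genes rested on few reads. Hspa1a had 4, 1 and 4 counts in TEPP-46 libraries (1.1, 0.420 and 1.29 CPM), against 4.42, 69.9 and 20.4 CPM in control libraries. The control libraries themselves spanned a wide range, with replicate 1 nearest to the TEPP-46 libraries. Hspa1a fell by 4.97 ± 1.31 on the log2 scale (adjusted p = 0.0307), and the call was lost without control replicate 4 or 5 and without TEPP-46 replicate 4 or 5 (adjusted p up to 0.103, log2 fold changes from -5.49 to -3.64), and under limma-voom (adjusted p = 0.214). Hspa1b had 2 counts in all TEPP-46 libraries and 31 in all control libraries, a level 11.6 times lower with a 95% counting interval of 2.94 to 99.7. Its groups overlapped, since control replicate 1 also had 0 counts, and the fit did not call it (-3.35 ± 1.66, adjusted p = 0.181). Hspb1, the small heat shock protein that was too low to be tested, had 3 counts in TEPP-46 libraries (1, 0 and 2). Control libraries had 29 (4, 20 and 5), so that the pooled level was 7.21 times lower in TEPP-46 libraries (95% counting interval 2.24 to 37.0). Hspa1a and Hspa1b are near-identical copies, so reads could be split between them, and the intervals cover counting error only.

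In the ER, calnexin fell and its partner isomerase rose. Canx, the membrane-bound lectin chaperone calnexin, stood at 654, 379 and 401 CPM in TEPP-46 cells, against 999, 845 and 957 CPM in control cells, and fell by 0.97 ± 0.25 (adjusted p = 0.0271). Pdia3, the disulfide isomerase that partners calnexin, stood at 1514, 775 and 1204 CPM in TEPP-46 cells, against 577, 608 and 624 CPM in control cells, and rose by 0.95 ± 0.26 (adjusted p = 0.0359). For both genes the TEPP-46 and control libraries did not overlap. The soluble lectin chaperone Calr had 310, 186 and 153 CPM in TEPP-46 cells and 159, 156 and 153 CPM in control cells, with overlap at the low end (0.47 ± 0.29, adjusted p = 0.269). The call on Canx was lost without any 1 control library or without TEPP-46 replicate 4 or 5 (adjusted p up to 0.108). That on Pdia3 was lost without any 1 control library, TEPP-46 replicate 5 or resting replicate 4 or 5 (adjusted p up to 0.125). With total counts as the only scaling Pdia3 had an adjusted p of 0.0514. Exons of Pdia3 overlap those of Catsper2 on the opposite strand.

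Hyou1, an ER HSP110 that exchanges the nucleotide of BiP, stood at 46.2, 42.9 and 45.3 CPM in TEPP-46 cells, against 91.5, 71.1 and 80.2 CPM in control cells. The 3 TEPP-46 libraries lay close together and below all control libraries. Hyou1 fell by 0.85 ± 0.20 (adjusted p = 0.02). Pdia6, an isomerase that regulates IRE1, had 223, 180 and 163 CPM in TEPP-46 cells and 418, 300 and 334 CPM in control cells, and fell by 0.89 ± 0.21 (adjusted p = 0.02). Both calls were lost without any 1 control library or without TEPP-46 replicate 5 (adjusted p up to 0.0893 for Hyou1 and 0.0882 for Pdia6). Exons of Pdia6 overlap Atp6v1c2 on the opposite strand.

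**Figure D4:**
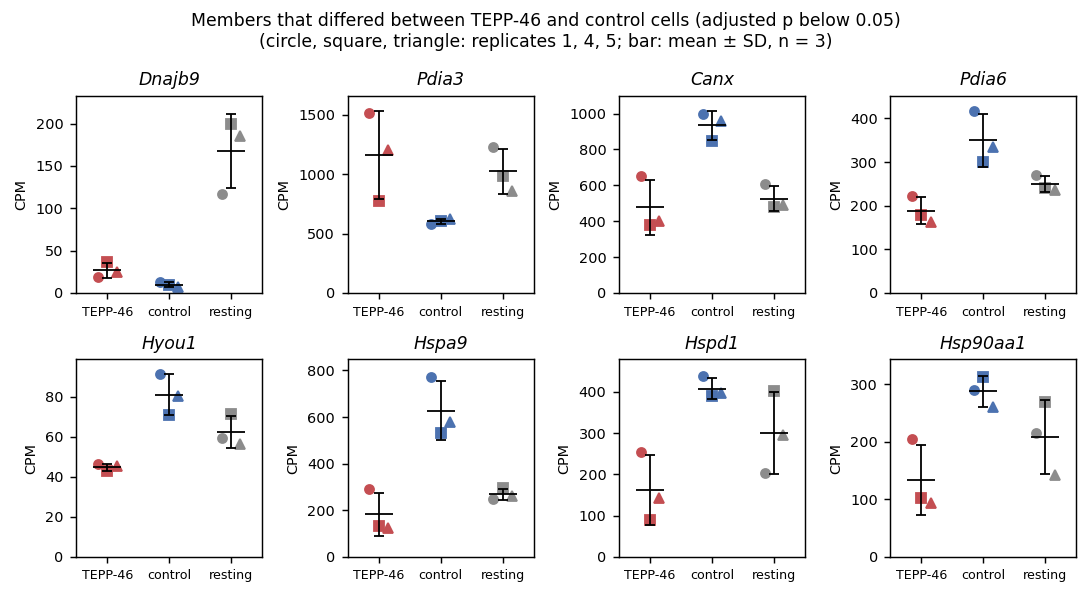
CPM of the members that differed between TEPP-46 and control cells at an adjusted p below 0.05, other than Hspa1a, in each TEPP-46, control and resting library (circle, square and triangle for replicates 1, 4 and 5), with a bar for the mean ± SD (n = 3). In each panel the TEPP-46 and control points do not overlap, and those of Dnajb9 and Pdia3 are higher in TEPP-46 cells.

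Dnajb9, an HSP40 that brings BiP back to the sensor IRE1, had 18.4, 36.6 and 24.9 CPM in TEPP-46 cells, against 12.8, 9.60 and 7.56 CPM in control cells. All TEPP-46 libraries were higher, with replicate 4 at the top, although that library was the lowest in many other members. Dnajb9 rose by 1.40 ± 0.33 (adjusted p = 0.0213), and the call was lost without control replicate 4 or 5 or TEPP-46 replicate 5, with an adjusted p of at most 0.0966. The other ER HSP40 genes did not pass. Dnajc3, the co-chaperone P58IPK, was above the control range in every TEPP-46 library, at 249, 243 and 253 CPM in TEPP-46 cells against 182, 168 and 193 CPM in control cells (0.46 ± 0.22, adjusted p = 0.181). Dnajb11 overlapped (0.28 ± 0.22, adjusted p = 0.378). Sdf2l1, which works with these co-chaperones, had 54.7, 20.6 and 15.9 CPM in TEPP-46 cells and 120, 78.0 and 72.4 CPM in control cells, just outside the threshold (-1.56 ± 0.48, adjusted p = 0.0511).

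The abundant ER chaperones Hspa5 and Hsp90b1 did not pass the test. Hspa5 had 1241, 703 and 618 CPM in TEPP-46 cells and 1464, 971 and 1111 CPM in control cells, with overlap through TEPP-46 replicate 1 (-0.47 ± 0.29, adjusted p = 0.273). Hsp90b1, the ER HSP90 known as GRP94, had 463, 207 and 219 CPM in TEPP-46 cells and 586, 523 and 585 CPM in control cells (-0.93 ± 0.30, adjusted p = 0.058). Among the isomerases P4hb had a log2 fold change of -0.73 ± 0.26 (adjusted p = 0.0819) and Pdia4 one of -0.64 ± 0.29 (adjusted p = 0.146). Hsp90b1, P4hb and Pdia4 were lower in every TEPP-46 library than in every control library.

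Xbp1, the transcription factor that IRE1 splices, had the highest level per length of the sensor genes in all 3 groups. It stood at 563, 209 and 304 CPM in TEPP-46 cells, against 646, 1049 and 792 CPM in control cells (-1.21 ± 0.42, adjusted p = 0.0719). The groups did not overlap, though TEPP-46 replicate 1 lay close to control replicate 1. Counts per gene do not separate spliced from unspliced Xbp1. Ern1, which encodes IRE1, stood at 4.68, 13 and 12.0 CPM in TEPP-46 cells and 8.59, 4.56 and 8.57 CPM in control cells (0.44 ± 0.59, adjusted p = 0.632). Atf6 had 36.6, 23.5 and 30.7 CPM in TEPP-46 cells and 24.5, 20.9 and 24.0 CPM in control cells (0.39 ± 0.28, adjusted p = 0.348). Neither sensor was separated between these groups.

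The degradation genes of the ER did not pass the test. Sel1l, the partner of the ubiquitin ligase HRD1, had 114, 87.4 and 127 CPM in TEPP-46 cells, below the 198, 144 and 169 CPM of control cells (-0.63 ± 0.23, adjusted p = 0.0808). Edem1, which extracts misfolded glycoproteins, had 646, 326 and 318 CPM in TEPP-46 cells and 351, 293 and 310 CPM in control cells (0.44 ± 0.32, adjusted p = 0.357). Herpud1, a scaffold of the same machinery, had a log2 fold change of 0.02 ± 0.23 (adjusted p = 0.968). The secreted stress proteins Manf and Creld2 had log2 fold changes of 0.11 ± 0.23 and -0.56 ± 0.24 (adjusted p = 0.774 and 0.131), and only Creld2 was lower in every TEPP-46 library.

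In control cells relative to resting cells, Dnaja1, Dnajb1, Hsph1, Hsf1, Dnajb9, Dnajb11, Dnajc3 and Pdia3 fell, while Hspa9, Canx, Atf6, Xbp1 and Sdf2l1 rose. This comparison sets activated cells without the compound against resting cells. In control cells 8 members fell (22.2% of those listed, beside 15.8% of all genes) and 5 rose (13.9%, beside 15.5%). All control libraries were above all resting libraries in 9 tested members (25% of those listed, beside 29.2%) and below them in 11 (30.6%, beside 30%). These shares lie near those of all genes. The median log2 fold change was 0.333, against -0.04 over all genes tested. With total counts as the only scaling the median of all genes moved by 0.107, 5 members rose and 5 fell. The cytosolic and mitochondrial members had a positive median of 0.392 although 4 of them fell and 1 rose. Their 5 calls became 3 without resting replicate 1 or 5 or control replicate 1. The 8 calls in the ER became 2 without resting replicate 4 or 5 or control replicate 4 or 5, 3 without control replicate 1 and 5 without resting replicate 1.

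The cytosolic members that fell were Dnaja1, Dnajb1, Hsph1 and Hsf1. Dnaja1, an HSP40 of the cytosol, stood at 217, 222 and 197 CPM in control cells, against 455, 574 and 394 CPM in resting cells, and fell by 1.16 ± 0.20 (adjusted p = 0.0024). Dnajb1, the HSP40 partner of inducible HSP70, stood at 119, 221 and 165 CPM in control cells, against 482, 486 and 350 CPM in resting cells, and fell by 1.38 ± 0.29 (adjusted p = 0.00601). Hsph1, an HSP110 exchange factor, had 104, 92.4 and 70.6 CPM in control cells and 227, 396 and 167 CPM in resting cells, and fell by 1.57 ± 0.33 (adjusted p = 0.00623). In each of these genes the groups were separate, and all 3 calls held under every alternative tried. Hsf1, the regulator itself, had 97.1, 86.9 and 80.2 CPM in control cells and 152, 162 and 148 CPM in resting cells, and fell by 0.81 ± 0.26 (adjusted p = 0.0357). This call was lost without any 1 of the control or resting libraries (adjusted p up to 0.126) and with total counts as the only scaling (adjusted p = 0.0734). Exons of Dnaja1 overlap Smu1 on the opposite strand.

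Hspa9 was the cytosolic or mitochondrial member that rose. It stood at 773, 533 and 578 CPM in control cells, against 247, 295 and 262 CPM in resting cells, and rose by 1.23 ± 0.33 (adjusted p = 0.0169). Without resting replicate 1 or 5 or control replicate 1 the adjusted p was 0.0505, 0.0565 and 0.0704. The other mitochondrial pair, Hspd1 and Hspe1, overlapped between the groups (0.44 ± 0.36 and 0.38 ± 0.57, adjusted p = 0.374 and 0.648). Both HSP90 genes also overlapped, with log2 fold changes of 0.47 ± 0.32 for Hsp90aa1 and 0.41 ± 0.31 for Hsp90ab1 (adjusted p = 0.295 and 0.338). Hspa4 was higher in every control library but did not pass (0.41 ± 0.21, adjusted p = 0.153), and Hspa8 had -0.42 ± 0.37 (adjusted p = 0.414). Hspa1a, Hspa1b and Bag3 had SEs of 0.79 to 1.18 on the log2 scale and were not called. Hspb1 had 29 counts in control (4, 20 and 5 by library) and 5 in resting libraries (2, 1 and 2), a pooled ratio of 6.36. Its 95% counting interval of 2.43 to 21.0 leaves out the spread between libraries.

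Dnajb9 was the member with the largest change. It stood at 12.8, 9.60 and 7.56 CPM in control cells, against 117, 200 and 186 CPM in resting cells, and fell by 4.07 ± 0.35 on the log2 scale, a level 16.7 times lower (adjusted p = 0.00015). The call held under every alternative, with an adjusted p of at most 0.00159. Other co-chaperones of BiP fell as well. Dnajc3 had 182, 168 and 193 CPM in control cells and 216, 350 and 380 CPM in resting cells (-0.80 ± 0.23, adjusted p = 0.0223). Dnajb11 had 158, 121 and 120 CPM in control cells and 218, 208 and 210 CPM in resting cells (-0.68 ± 0.22, adjusted p = 0.0373). Pdia3 fell to 577, 608 and 624 CPM in control cells, against 1232, 986 and 857 CPM in resting cells (-0.77 ± 0.26, adjusted p = 0.0481). The calls on Dnajc3 and Dnajb11 were lost without resting replicate 4 or 5, without control replicate 4 or 5, and without control replicate 1 for Dnajc3 or resting replicate 1 for Dnajb11 (adjusted p up to 0.0896 and 0.145). That on Pdia3 was lost without any 1 control or resting library or TEPP-46 replicate 5, with an adjusted p of at most 0.139.

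The resting libraries also held the plasma cell RNA given above, from a cell type rich in ER proteins, and its part in the ER results was not tested.

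Among the ER members that rose, Atf6 was the only one called under every alternative tried. Its RNA stood at 24.5, 20.9 and 24.0 CPM in control cells, against 12.7, 8.98 and 8 CPM in resting cells, and rose by 1.22 ± 0.29 (adjusted p = 0.0104). Xbp1 stood at 646, 1049 and 792 CPM in control cells, against 506, 207 and 261 CPM in resting cells, and rose by 1.35 ± 0.42 (adjusted p = 0.033). Sdf2l1 stood at 120, 78.0 and 72.4 CPM in control cells, against 17.1, 37.2 and 41.5 CPM in resting cells, and rose by 1.5 ± 0.48 (adjusted p = 0.0366). In all 3 genes the groups were separate. Canx stood at 999, 845 and 957 CPM in control cells, against 605, 480 and 490 CPM in resting cells, and rose by 0.83 ± 0.25 (adjusted p = 0.0271). The calls on Xbp1 and Canx were lost without any 1 control library or without resting replicate 4 or 5 (adjusted p up to 0.116 and 0.0974), and that on Sdf2l1 without any 1 control or resting library (adjusted p up to 0.132).

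**Figure D5:**
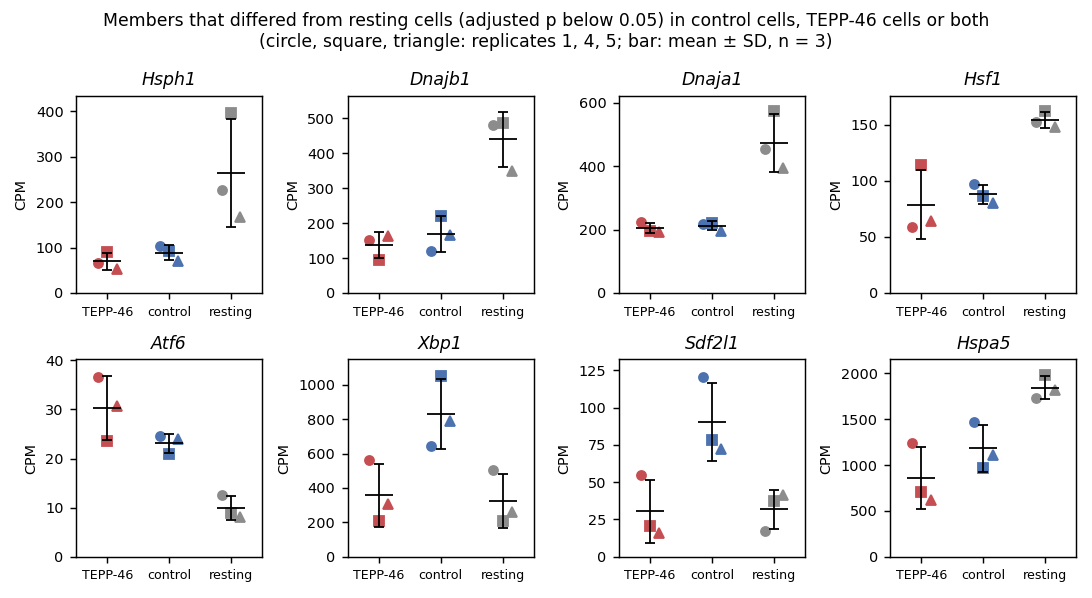
CPM of 8 members that differed from resting cells at an adjusted p below 0.05 in control cells, in TEPP-46 cells or in both, in each TEPP-46, control and resting library (circle, square and triangle for replicates 1, 4 and 5), with a bar for the mean ± SD (n = 3). Hsph1, Dnajb1, Dnaja1 and Hsf1 are lower in both activated groups, Atf6 is higher in both, Xbp1 and Sdf2l1 are high in control cells, and Hspa5 is lower in TEPP-46 than in resting cells.

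Of the remaining ER members, Hspa5 was lower in every control library, at 1464, 971 and 1111 CPM against 1732, 1976 and 1816 CPM in resting cells, but the test did not pass (-0.64 ± 0.29, adjusted p = 0.115). Calr and Creld2 were also lower in every control library (-0.58 ± 0.29 and -0.27 ± 0.23, adjusted p = 0.149 and 0.411). Pdia6, P4hb and Hsp90b1 were higher in every control library (0.49 ± 0.20, 0.59 ± 0.26 and 0.33 ± 0.30, adjusted p = 0.0938, 0.114 and 0.417). The other 7, Hyou1, Pdia4, Manf, Ern1, Herpud1, Edem1 and Sel1l, overlapped between the groups, with log2 fold changes from -0.64 (Ern1) to 0.51 (Sel1l).

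Set against resting cells, TEPP-46 cells had less RNA of Dnaja1, Dnajb1, Hsph1, Hsf1, Dnajb9 and Hspa5 and more of Atf6. It shares the resting libraries with the comparison above and the TEPP-46 libraries with the first, so its values are given side by side and not as a separate test of either. Here 6 members fell (16.7% of those listed, beside 3.92% of all genes) and 1 rose (2.78%, beside 6.37%). All TEPP-46 libraries were below all resting libraries in 12 tested members (33.3% of those listed, beside 14.1%) and above them in 1 (2.78%, beside 12.6%). The median log2 fold change was -0.48, against 0.019 over all genes. All 14 tested cytosolic and mitochondrial members had negative fold changes, with a median of -0.771. The median of the 21 ER members was -0.208. Without TEPP-46 replicate 1 the 4 calls of the cytosol and mitochondria became 7, and the 3 of the ER became 5.

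Dnaja1 stood at 223, 197 and 194 CPM in TEPP-46 cells, against 455, 574 and 394 CPM in resting cells, and fell by 1.21 ± 0.20 (adjusted p = 0.00632). Dnajb1 had 151, 95.4 and 164 CPM in TEPP-46 cells and fell by 1.68 ± 0.29 (adjusted p = 0.00833), and Hsph1 had 65.5, 89.1 and 53.7 CPM in TEPP-46 cells and fell by 1.93 ± 0.34 (adjusted p = 0.00846). Their levels in TEPP-46 cells overlapped those in control cells. Hsf1 had 58.6, 114 and 63.7 CPM in TEPP-46 cells and fell by 0.97 ± 0.26 (adjusted p = 0.0403). The calls on Dnaja1, Dnajb1 and Hsph1 held under every alternative, and that on Hsf1 was lost without any 1 library other than TEPP-46 replicate 4 (adjusted p up to 0.119).

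In the ER, Dnajb9 in TEPP-46 cells lay above control cells and below resting cells, at 18.4, 36.6 and 24.9 CPM, and fell by 2.66 ± 0.33 relative to resting cells, a level 6.33 times lower (adjusted p = 0.00179). Atf6 rose by 1.61 ± 0.29 (adjusted p = 0.00986), and only a fit of these groups alone lost the call (adjusted p = 0.0527). Hspa5 stood at 1241, 703 and 618 CPM in TEPP-46 cells, against 1732, 1976 and 1816 CPM in resting cells, and fell by 1.11 ± 0.29 (adjusted p = 0.0387). This call was lost without any 1 library other than TEPP-46 replicate 1 (adjusted p up to 0.119). The summed level of the plasma cell markers, higher in resting cells, accompanies this comparison too. Creld2 was lower in every TEPP-46 library at 37.7, 38.7 and 23.6 CPM, against 58.3, 60.2 and 58.4 CPM in resting cells, and missed the threshold (-0.83 ± 0.24, adjusted p = 0.0536). Hspa1a missed it as well, with 9 counts in TEPP-46 and 296 in resting libraries (-4.40 ± 1.31, adjusted p = 0.0583).

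The comparisons share libraries, those with control cells the 3 control libraries, so calls of opposite sign in them are not independent. Hspa9 and Canx fell in TEPP-46 relative to control cells, rose in control relative to resting cells and were not called between TEPP-46 and resting cells (-0.56 ± 0.32 and -0.13 ± 0.24, adjusted p = 0.302 and 0.771). Pdia3 rose in TEPP-46 relative to control cells, fell in control relative to resting cells and was not called between TEPP-46 and resting cells (0.18 ± 0.26, adjusted p = 0.703). A fold change that missed the threshold does not show that the groups were equal. Hsp90aa1, Hspd1, Hspa1a, Hyou1 and Pdia6 were called between TEPP-46 and control cells alone. Dnajb9 was called in all 3 comparisons. The 16 members called in no comparison were Hspa1b, Hspa4, Hspa8, Hsp90ab1, Hspe1, Bag3, Hsp90b1, Calr, Pdia4, P4hb, Manf, Creld2, Ern1, Herpud1, Edem1 and Sel1l, and Hspb1 was not tested.

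The rest of the folding machinery was read from 8 further lists of 114 genes, of which 107 were tested. Between TEPP-46 and control cells 3 rose and 10 fell, beside 9.72% and 6.43% of all genes tested, and between control and resting cells 15 rose and 11 fell, beside 15.5% and 15.8%. In TEPP-46 relative to resting cells 0 rose and 8 fell, beside 6.37% and 3.92%. Those falls were 5 among the cytosolic co-chaperones, 2 among the mitochondrial genes and 1 in the PERK arm. None of these counts is read as particular to the lists. Among 9 mitochondrial chaperones and proteases 2 fell, Lonp1, the protease of the matrix, and Clpx, the unfoldase of the other matrix protease. Lonp1 averaged 52.3 ± 13.9 CPM in TEPP-46 cells and 186 ± 20.3 CPM in control cells (SD, n = 3), and fell by 1.83 ± 0.24 (adjusted p = 0.00252), under every alternative. Clpx averaged 61.9 ± 20.8 CPM in TEPP-46 cells and 152 ± 11.3 CPM in control cells, and fell by 1.29 ± 0.25 (adjusted p = 0.0102, and 0.0536 without control replicate 5). Lonp1 was also higher in control than in resting cells, which averaged 43.3 ± 5.27 CPM (2.1 ± 0.24, adjusted p = 0.000422). The 8 subunits of the cytosolic chaperonin TRiC gave 1 fall between TEPP-46 and control cells, Cct7, and 1 rise between control and resting cells, Tcp1. Both calls were lost when single libraries were left out, Cct7 without any 1 library other than TEPP-46 replicate 1 or resting replicate 1 (adjusted p up to 0.145), and Tcp1 without any 1 control or resting library (adjusted p up to 0.117).

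Of 22 further ER folding, glycosylation and oxidation genes, 2 fell in TEPP-46 relative to control cells and 5 rose in control relative to resting cells, beside 6.43% and 15.5% of all genes. Ero1l, the oxidase that recharges disulfide isomerases and is known as a hypoxia-inducible gene, averaged 81.9 ± 43.0 CPM in TEPP-46 cells and 776 ± 90.9 CPM in control cells, and fell by 3.24 ± 0.34 (adjusted p = 0.0013). Resting cells averaged 55.9 ± 6.14 CPM, and Ero1l rose by 3.79 ± 0.35 in control cells relative to them (adjusted p = 0.000167). Both calls held under every alternative. Txndc5, an ER thioredoxin-like isomerase, averaged 99.8 ± 21.8 CPM in TEPP-46 cells and 235 ± 40.6 CPM in control cells and fell by 1.24 ± 0.25 (adjusted p = 0.0117), a call lost without control replicate 1 or 5 or TEPP-46 replicate 5, with an adjusted p of at most 0.0583. Pdia6 also fell in that comparison, while Pdia3 rose.

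Of 16 ER-associated degradation genes, 14 were tested and 1 rose in TEPP-46 relative to control cells (beside 9.72% of all genes). It was Os9, a lectin that passes misfolded glycoproteins on, at 601 ± 166 CPM in TEPP-46 cells and 236 ± 11.2 CPM in control cells (1.35 ± 0.23, adjusted p = 0.00705). The call held without any 1 library and had an adjusted p of 0.0611 without both TEPP-46 replicates 4 and 5. Among 6 genes of sensor processing 1 rose (beside 9.72% of all genes), Mbtps1, the site-1 protease that cleaves ATF6. It stood at 141 ± 11.9 CPM in TEPP-46 cells and 71.9 ± 2.76 CPM in control cells (0.97 ± 0.18, adjusted p = 0.00822, and 0.0504 without control replicate 5). Resting cells had 149 ± 12.5 CPM, and Mbtps1 fell by 1.05 ± 0.18 in control cells relative to them (adjusted p = 0.00216). In that comparison Atf6 itself rose.

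All 8 genes of the PERK arm were tested. In control relative to resting cells 3 rose and 2 fell (beside 15.5% and 15.8% of all genes). In TEPP-46 relative to control cells 1 fell (beside 6.43% of all genes). The fall was that of Atf4, the transcription factor of this arm, at 66.3 ± 32.9 CPM in TEPP-46 cells and 134 ± 15.3 CPM in control cells (-1.01 ± 0.31, adjusted p = 0.0492), a call lost without any 1 library other than TEPP-46 replicate 1 (adjusted p up to 0.162). Ppp1r15a, the stress-inducible subunit that dephosphorylates eIF2α, averaged 91.9 ± 28.2 CPM in TEPP-46 cells, 134 ± 27.5 CPM in control cells and 1460 ± 547 CPM in resting cells. It fell by 3.99 ± 0.37 in TEPP-46 relative to resting cells (adjusted p = 0.000689) and by 3.45 ± 0.36 in control relative to resting cells (adjusted p = 0.000277). Ppp1r15b fell as well in control relative to resting cells (-0.991 ± 0.185, adjusted p = 0.00363), and that call held without any 1 library. Trib3, a target of ATF4, moved the other way, at 59.4 ± 15.7 CPM in control cells and 17.4 ± 10.3 CPM in resting cells (1.76 ± 0.39, adjusted p = 0.00762). These 3 results with Ppp1r15a and Trib3 held when any 1 library was left out.

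Among 27 cytosolic co-chaperones, of which 24 were tested, 1 rose and 3 fell in TEPP-46 relative to control cells (beside 9.72% and 6.43% of all genes), and 2 rose and 5 fell in control relative to resting cells (beside 15.5% and 15.8%). Between control and resting cells the smallest adjusted p was that of Dnajc7, which fell by 1.02 ± 0.19 (adjusted p = 0.00354), also without any 1 library. Dnajc7 was the rise between TEPP-46 and control cells (0.71 ± 0.19, adjusted p = 0.0317). That call was lost without any 1 library other than TEPP-46 replicate 1 or resting replicate 1 (adjusted p up to 0.138). The rises in control cells were those of Hsf2 and of Hspa4l, an HSP110 relative of Hspa4 and Hsph1. Hspa4l averaged 105 ± 14.5 CPM in control cells and 40.8 ± 11.9 CPM in resting cells and rose by 1.36 ± 0.26 (adjusted p = 0.0043), also without any 1 library. Hsf2, a paralogue of the heat shock factor Hsf1, averaged 14.5 ± 2.29 CPM in TEPP-46 cells, 34.0 ± 4.35 CPM in control cells and 13.2 ± 2.5 CPM in resting cells. It fell by 1.22 ± 0.27 in TEPP-46 relative to control cells (adjusted p = 0.0165), a call lost without any 1 control library or TEPP-46 replicate 5, with an adjusted p of at most 0.0775. It rose by 1.36 ± 0.27 in control relative to resting cells (adjusted p = 0.00467), also without any 1 library. Hsf1, by contrast, fell in that comparison. Of 18 genes of ER translocation, 17 were tested, with 1 fall (Ssr1) in TEPP-46 relative to control cells (beside 6.43% of all genes). In control relative to resting cells there were 3 rises and 1 fall (beside 15.5% and 15.8%), the smallest adjusted p being that of Srp72 (1.40 ± 0.30, adjusted p = 0.00714). Ssr1 was lost without any 1 library other than TEPP-46 replicate 1 or resting replicate 1 (adjusted p up to 0.137).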

How the data were processed

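For 9 libraries of mouse CD4+ T cells, made with a low-input kit per the labels' protocols, the deposited values are raw counts of reads per gene, whole numbers with no normalization by the authors. GRCm38 and DESeq2 (no version) are named in the submitters' processing notes. The sources used here do not give the aligner, the counter, its strand setting or the annotation. Of 47937 identifiers, 47224 were paired with a symbol from GENCODE M21. From the deposited counts, genes passing filterByExpr (minimum count 10, minimum total 15) were fitted with TMM factors over all 9 libraries by group with the quasi-likelihood functions of edgeR 4.0.16 (glmQLFit, glmQLFTest; R 4.3.3). The tests are two-sided with Benjamini-Hochberg adjustment over 12536 genes and a threshold of 0.05, and the steps were tested on simulated data. The biological coefficient of variation was 0.33 with 6 residual degrees of freedom. Levels are mean ± SD CPM on TMM-scaled library sizes, and errors of log2 fold changes are SEs of the fit.

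Every member was reported. From each further list up to 4 genes per comparison could be named, in order of adjusted p, and not all of these were named. The members and lists were chosen with earlier results of these data known. Of the further genes, Hspa14 and Hm13 were not matched by symbol. Alternatives were DESeq2 1.42.0, limma-voom (limma 3.58.1) with and without library quality weights, other scalings and filters, the groups compared alone, a replicate block and each library left out. Dropping TEPP-46 replicate 4 with resting replicate 1, or TEPP-46 replicates 4 and 5, was added after seeing the data. Promoter sequences are from RefSeq on GRCm38.p6.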

Additional observations from a re-analysis of the deposited data

How the results depend on the processing

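Of 29 called fold changes of members, 0 changed sign under any alternative, 29 were called by DESeq2 and 11 when each library was left out in turn, and 9 under every setting tried (Hsph1, Dnaja1, Dnajb1 and Dnajb9 in both comparisons with resting cells, and Atf6 in control against resting cells). From the further lists 41 called fold changes could be named under the rule above, and not all of them are. Of these 41, 17 kept their call when each library was left out and 0 changed sign. The uneven TEPP-46 libraries and 3 libraries per group limit the precision, and the cause of each change below was not tested.

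Counts of called members in TEPP-46 against control cells were as follows. The 4 cytosolic and mitochondrial calls became 2 with only the groups compared, 2 with the replicate block, 0 without TEPP-46 replicates 4 and 5, and 1 to 7 with 1 library left out. The 5 ER calls became 10 with DESeq2, 8 with limma-voom, 14 with its quality weights, 9 with total counts only, 8 without the filter, 1 without TEPP-46 replicates 4 and 5, and 0 to 11 with 1 library left out. In control against resting cells the 5 cytosolic and mitochondrial calls ran from 3 to 5 with 1 library left out, and the 8 ER calls became 14 with quality weights and 2 to 12 with 1 library left out. In TEPP-46 against resting cells the 4 cytosolic and mitochondrial calls became 9 with quality weights and 3 to 7 with 1 library left out, and the 3 ER calls became 9 with quality weights, 1 with only the groups compared and 2 to 5 with 1 library left out.

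The replicate numbers were not taken as pairs, since the deviations of same-numbered libraries correlated between -0.123 and 0.089, and with the replicate number as a block 23 of the 29 calls were kept.

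Uncalled log2 fold changes that changed sign in TEPP-46 against control cells were those of Hspa8 (-0.0613 with limma-voom, -0.198 with quality weights, -0.0623 with total counts, -0.462 to 0.374 with 1 library left out), Bag3 (-0.912 to 0.081 with 1 left out), Manf (-0.132 with quality weights, -0.0357 with total counts, -0.156 to 0.258 with 1 left out) and Herpud1 (-0.0137 with DESeq2, -0.0138 with RLE factors, -0.122 with total counts, -0.0124 without the filter, -0.166 to 0.242 with 1 left out). In control against resting cells they were Hspa1a (-0.765 to 1.87), Hspa1b (-0.124 to 1.5), Bag3 (-0.551 to 0.0621), Pdia4 (-0.0397 with quality weights, -0.113 to 0.33) and Ern1 (-1 to 0.172), the ranges with 1 library left out. In TEPP-46 against resting cells they were Hspa1b (0.147 with quality weights), Calr (-0.469 to 0.136), Canx (-0.437 to 0.00724), Pdia3 (-0.0585 to 0.407), P4hb (-0.448 to 0.0924), Sdf2l1 (-0.821 to 0.256), Manf (-0.38 to 0.0331), Xbp1 (-0.348 to 0.612), Ern1 (0.682 with quality weights, -0.572 to 0.601) and Sel1l (0.172 with quality weights, -0.243 to 0.0441), the ranges again with 1 library left out.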
